A study of Mus musculus with 24 samples.

Results

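Integrins, laminins and the proteins that join them in the basement membrane were followed across the EO771 derivatives as a set of 35 genes, matched by symbol and Ensembl identifier in the gene count tables. The set held 12 integrin alpha chains, 7 integrin beta chains, 9 laminin chains, 3 basement membrane linkers (Nid1, Nid2, Hspg2), fibronectin (Fn1) and 3 other matrix receptors (Ddr1, Ddr2, Dag1). In both batches 23 of the 35 genes had values. The remaining 12 had values in batch 1 alone, at 0 to 9 reads per library, and were taken as not detected. EO771 is a cell line from a spontaneous mammary carcinoma of C57BL/6 mice and is used as a model of triple-negative breast cancer. The pLNCX2 retroviral vector delivered mouse Ccr7 cDNA with a tdTomato reporter (CCR7) or served as the vector control (X2), under G418 selection, and cells with high podoplanin (PDPN, a membrane glycoprotein) were sorted from either. Batch 1 comprised X2, CCR7 and CCR7-PDPN, and batch 2 comprised X2, X2-PDPN and CCR7-PDPN, with 4 libraries per derivative and batch and 24 in all. The derivatives were cultured cell populations kept without clonal selection, and X2-PDPN was an enriched population. The library names mark CCR7 as PDPN-negative and X2 only as the control, so in a comparison of CCR7 with X2 transduction and such a sort cannot be told apart. As the 4 libraries of a group were technical replicates, each p-value measures the spread between libraries and not between independent sorts. In bulk libraries such as these, fewer cells of a kind and less RNA per cell cannot be told apart.

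Integrins are heterodimers of an alpha and a beta chain that bind matrix outside the cell and couple to actin or keratin filaments inside it. The beta1 chain pairs with many alpha chains, among them the laminin receptors alpha3, alpha6 and alpha7, the collagen receptor alpha1 and the fibronectin receptor alpha5, whereas beta4 pairs with alpha6 alone and anchors epithelial hemidesmosomes. Laminins are trimers of an alpha, a beta and a gamma chain that polymerise in the basement membrane, where nidogen and perlecan link them to type IV collagen. In breast epithelium these contacts hold cells to the basement membrane that an invading tumour has to cross.

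Library depth was 22275468 to 33395418 counted reads in batch 1 and 22788542 to 35721027 in batch 2. The transduced and sorted genes followed the labels, with Ccr7 at 5117 to 6325 TPM (transcript abundance, with reads scaled by gene length and by library) in the transduced derivatives and at 0.315 to 1.81 TPM in the others, and Pdpn at 47.3 to 54.7 TPM in the PDPN-positive derivatives and at 0 to 1.27 TPM in the others. Replicate 1 of CCR7 in batch 1 stood apart from the other 3 libraries of its group. Chi-square per degree of freedom between pairs of CCR7 libraries reached 22.5, against at most 7.15 in the other groups, so the calls of members that turn on that library are given with and without it. Of 12 mammary epithelial markers, Krt8 was abundant at 415 to 575 TPM and Krt7 was low at 0.382 to 1.34 TPM. The other 10, among them Krt18, Epcam and Cdh1, had fewer than 10 reads in every library of batch 1. Of this list Krt8 alone was thus clearly expressed, so most of the list did not mark the cells as epithelial. The study likewise describes the cytokeratins as mostly absent, with Krt8 as the exception.

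At the level of single chains, the beta1 gene Itgb1 (chromosome 8, 128685654 to 128733200, GRCm38) was the most abundant member, with a mean of 861 TPM over 24 libraries, and contributed 83.0 to 87.5% of all integrin beta chain TPM in each library. Itgb5, a partner of alpha v, came next among the beta chains at 94.2 to 129 TPM. Itgb7, whose known partners are alpha4 and alpha E, followed at 7.57 to 49.5 TPM although Itga4 had 0 to 1 read and Itgae 0 to 6 reads in the libraries of batch 1. Itgb3 ranged from 2.20 to 9.59 TPM and Itgb4 from 0.235 to 1.93 TPM. Itgb6 was read 0 to 2 times per library, and Itgb8 was at 0 reads across batch 1, a count compatible with up to 3 reads in a library of that depth.

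Most of the alpha chain signal came from 3 genes. Itga5 (chromosome 15, 103344286 to 103366763) made up 31.5 to 41.6% of summed alpha chain TPM, Itga6 25.7 to 35.5% and Itga3 18.4 to 22.7%, and Itgav took 7.41 to 10.7%. The order of neighbouring levels was clear for Itga3 over Itgav, which it exceeded in every library, but Itga6 exceeded the next member, Dag1, in only 12 of 24 libraries. The ratio of Itga6 to Itgb4 TPM lay between 105 and 520 in all libraries, and the summed alpha chains reached 0.432 to 0.726 of the Itgb1 level. The collagen receptor Itga2, the leukocyte chain Itga4, and Itga8 and Itga11 had at most 1 read per library, and Itga9 had at most 9.

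Among laminins, the gamma1 gene Lamc1 (chromosome 1, 153218922 to 153332786) accounted for 57.3 to 66.2% of summed laminin TPM, the alpha5 gene Lama5 for 23.6 to 30.0% and the beta2 gene Lamb2 for 9.61 to 13.4%. These are the 3 chains of laminin-521. The beta1 gene Lamb1, the beta chain of laminin-511, had 0 to 23 reads per library, and the ratio of Lamb2 to Lamb1 TPM was 232 to 4727 over the libraries in which Lamb1 was read. Lama1, Lama2 and Lama4 had at most 1 read per library, Lama3 3 to 16 reads and Lamb3 2 to 31 reads. Both linkers of the lamina were abundant, with Nid1 (nidogen-1) at 153 to 202 TPM and Hspg2 (perlecan) at 105 to 220.0 TPM, while Nid2 had at most 2 reads. Fn1 (chromosome 1, 71585520 to 71653200), the ligand of the abundant alpha5 beta1 pair, had 1 read in 1 library of X2, 1 read in 1 library of CCR7, and 3 and 1 reads in 2 libraries of CCR7-PDPN, and 0 in the other 8 libraries of batch 1.

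**Figure D1:**
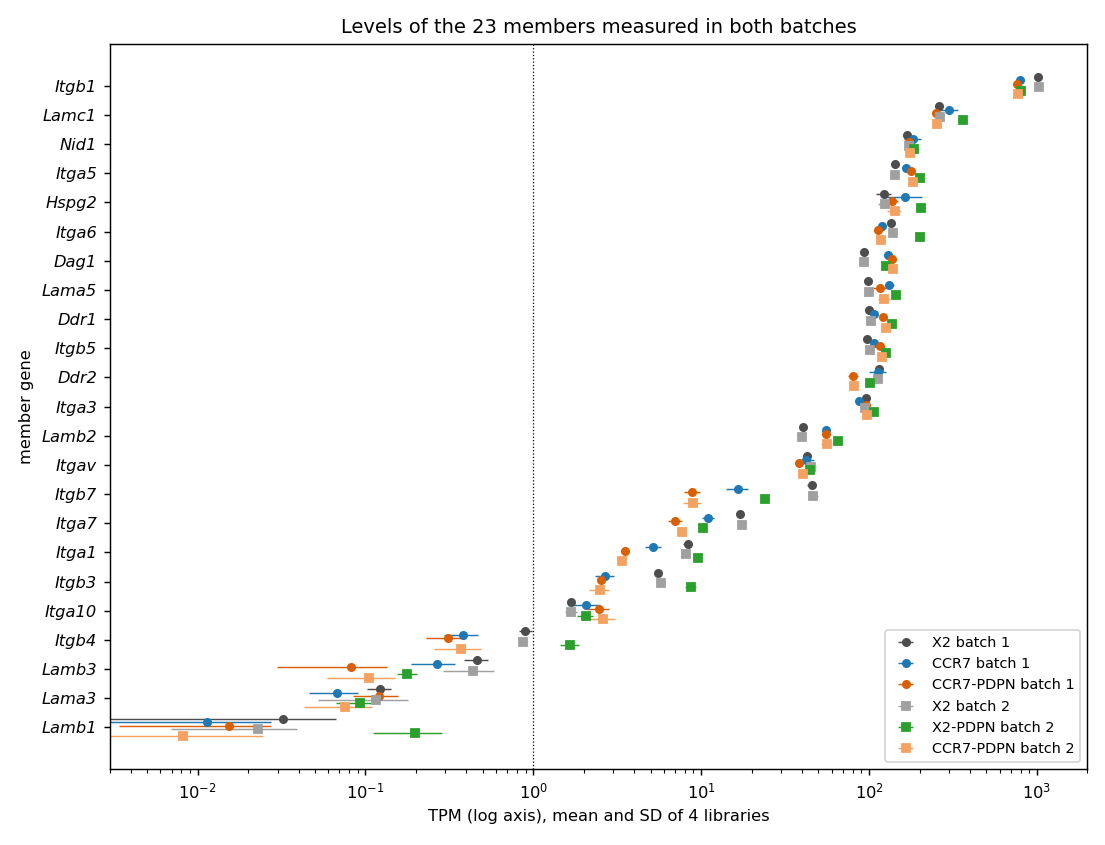
Mean TPM (log axis) of the 23 members read in both batches, in order of their level, for the 6 groups; points are means and bars SD of 4 libraries, and the dotted line marks 1 TPM. Itgb1 stands alone at the top, 14 members lie above 35 TPM in every group, and Itgb4, Lamb3, Lama3 and Lamb1 lie near or below 1 TPM.

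Cells with and without the Ccr7 vector were compared as CCR7 against X2 in batch 1. The largest differences lay in 3 integrin beta chains, Itgb7, Itgb4 and Itgb3, which were all lower in CCR7. Differences were called at an adjusted p under 0.05 (edgeR quasi-likelihood test, adjusted over all genes tested) and an absolute log2 fold change above 1, and a second count used the adjusted p alone. Of 22 members tested, 0 were higher and 3 lower, where 3.30% and 3.18% of all 13261 genes were called in those directions. By the adjusted p alone 6 were higher and 9 lower, beside 24% and 25.2% of all genes.

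Itgb7 (chromosome 15, 102215995 to 102231944) was at 43.6, 47.1, 42.9 and 48.7 TPM in X2 and at 13.4, 15.9, 18.7 and 18.4 TPM in CCR7. The groups did not overlap, and the log2 fold change was -1.47 ± 0.08 (SE, adjusted p = 8.52e-11, n = 4 and 4 throughout). Itgb3, the beta3 chain that pairs with alpha v to bind vitronectin and osteopontin (chromosome 11, 104608000 to 104670476), was at 5.49, 5.51, 5.40 and 5.61 TPM in X2 and at 2.68, 3.13, 2.60 and 2.28 TPM in CCR7. Again no library of CCR7 reached the X2 range, and the log2 fold change was -1.04 ± 0.09 (adjusted p = 1.89e-09), which became -0.98 without replicate 4 of CCR7 and then missed the fold threshold.

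Itgb4 (chromosome 11, 115974709 to 116008412) was low throughout, at 0.798, 0.976, 0.878 and 0.944 TPM in X2 and 0.296, 0.448, 0.465 and 0.316 TPM in CCR7, which is 43 to 52 reads against 13 to 29. The groups did not overlap (log2 fold change -1.22 ± 0.20, adjusted p = 3.22e-05). Itgb1 moved less, from 1025, 1016, 995 and 1012 TPM in X2 to 752, 823, 810.3 and 808 TPM in CCR7 (log2 fold change -0.34 ± 0.03, adjusted p = 1.31e-09). It was thus the most abundant beta chain that also fell, by an amount under the fold threshold, whereas Itgb5 rose by 0.14 ± 0.04 on the log2 scale (adjusted p = 0.00261).

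**Figure D2:**
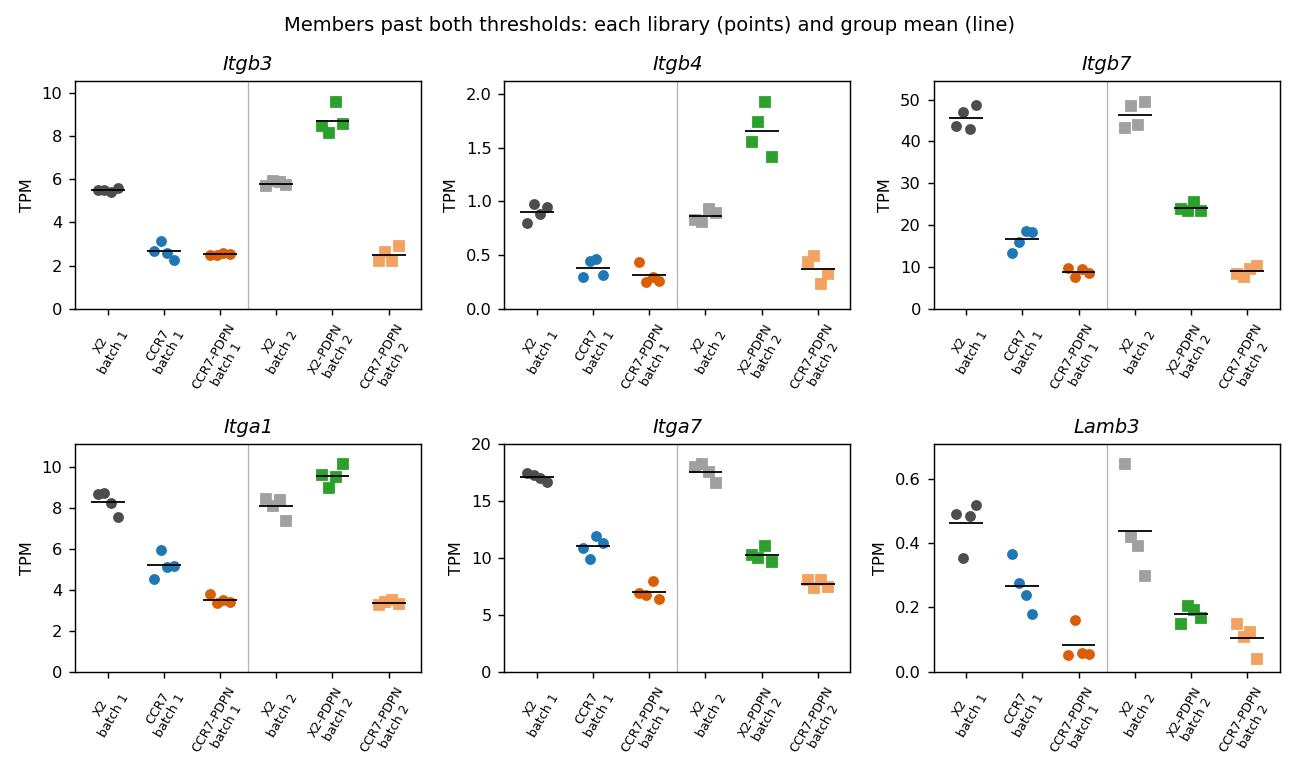
TPM in each of the 24 libraries (points) with the group mean (line) for the 6 members past both thresholds in at least 1 comparison; the vertical line separates batch 1 (left) from batch 2 (right), and each axis starts at 0. Itgb3 and Itgb4 are lowest in the Ccr7-transduced groups and highest in X2-PDPN, while Itgb7, Itga7 and Lamb3 are highest in X2.

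The same question was put to PDPN-positive cells by comparing CCR7-PDPN with X2-PDPN in batch 2. Itgb3, Itgb4, Itgb7 and the collagen receptor chain Itga1 were lower in CCR7-PDPN, so that 0 of 21 members tested were higher and 4 lower (2.76% and 6.40% of 13314 genes). By the adjusted p alone 2 members, Itga10 and Dag1, were higher and 15 lower, beside 31.2% and 32.0% of all genes, and the median log2 fold change of the members tested was -0.20 against 0.00014 over all genes.

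Itgb4 was at 1.55, 1.74, 1.93 and 1.42 TPM in X2-PDPN (72 to 118 reads) and at 0.440, 0.491, 0.235 and 0.326 TPM in CCR7-PDPN (14 to 29 reads). This was the largest fold among the 21 members tested in that comparison (log2 fold change -2.14 ± 0.18, adjusted p = 6.29e-14). Itgb3 was at 8.46, 8.13, 9.59 and 8.55 TPM in X2-PDPN and at 2.20, 2.64, 2.21 and 2.92 TPM in CCR7-PDPN (-1.77 ± 0.08, adjusted p = 1.03e-22). Itgb7 was at 23.9, 23.4, 25.5 and 23.4 TPM against 8.45, 7.67, 9.46 and 10.2 TPM (-1.40 ± 0.07, adjusted p = 3.77e-21). For all 3 beta chains the lowest X2-PDPN library lay above the highest CCR7-PDPN library, whereas Itgb1 stood at 773 to 825 TPM in X2-PDPN and 758 to 792 TPM in CCR7-PDPN and did not pass the test (-0.03 ± 0.02, adjusted p = 0.377).

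Itga1 (chromosome 13, 114953096 to 115101964), which with beta1 forms a collagen receptor, was at 9.63, 8.96, 9.53 and 10.1 TPM in X2-PDPN and at 3.27, 3.42, 3.52 and 3.29 TPM in CCR7-PDPN. Its log2 fold change was -1.47 ± 0.05 (adjusted p = 1.55e-28). In batch 1 it was at 8.66, 8.71, 8.23 and 7.57 TPM in X2 and 4.52, 5.96, 5.13 and 5.16 TPM in CCR7 (-0.68 ± 0.07, adjusted p = 4.07e-08), again without overlap but under the fold threshold. Itga6, which binds laminin with beta1 or beta4, was lower in CCR7-PDPN by 0.75 ± 0.03 on the log2 scale (adjusted p = 1.95e-26), from 189 to 209.7 TPM to 113 to 122 TPM.

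Of the 6 members past both thresholds, the RefSeq promoter table (GRCm38.p6) held an entry for Itgb7, Itga1 and Lamb3. The 250 bases before the start of Itgb7 and Itga1 are shown because these were the most strongly expressed of the 3 and both fell with Ccr7. The Itgb7 stretch is chr15:102231936-102232185 and the Itga1 stretch chr13:115101965-115102214, both on the minus strand and both written 5′ to 3′ along the gene.
Itgb7: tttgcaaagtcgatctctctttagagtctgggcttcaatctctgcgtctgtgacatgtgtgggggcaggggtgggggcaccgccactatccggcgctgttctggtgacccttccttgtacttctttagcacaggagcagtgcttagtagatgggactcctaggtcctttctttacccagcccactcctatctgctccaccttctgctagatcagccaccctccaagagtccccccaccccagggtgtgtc
Itga1: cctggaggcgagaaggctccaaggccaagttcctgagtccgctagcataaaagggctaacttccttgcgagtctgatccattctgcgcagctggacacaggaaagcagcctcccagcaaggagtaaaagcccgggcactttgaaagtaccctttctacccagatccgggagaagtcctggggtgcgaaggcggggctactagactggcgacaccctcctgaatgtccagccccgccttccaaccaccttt
Both are in lower case throughout because none of 5 motifs, which capitals would have marked, occurred on either strand. The motifs searched were the GC box with the letters GGGCGG, the CCAAT box as its name spells it, the TATA box with the letters TATAAA, the AP-1 site in its form TGAGTCA and its reverse complement, and the E-box with the letters CACGTG. Over 32536 promoter stretches of the same length in that table, 33% held the GC box, 33.8% the CCAAT box, 12.3% the TATA box, 4.45% an AP-1 site and 6.04% the E-box. The stretches were 56.0% (Itgb7) and 57.6% (Itga1) G or C.

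To ask what went with PDPN in the absence of Ccr7, X2-PDPN was compared with X2 in batch 2. Many of the abundant adhesion genes were higher in X2-PDPN, each by less than the fold threshold, and the low laminin chain Lamb3 was lower. Of 21 members tested, 0 were higher and 1 lower past both thresholds (3.51% and 1.55% of 13314 genes), while by the adjusted p alone 14 were higher and 5 lower (28.2% and 28.5% of all genes). The median log2 fold change of the members tested was 0.31, against 0.0012 over all genes. Lamb1 was too sparse to enter the test, at 2, 2, 3 and 0 reads in X2, 23, 21, 6 and 15 reads in X2-PDPN and 2, 0, 0 and 0 reads in CCR7-PDPN. Without the filter on low counts it was the only member past both thresholds upwards, with a log2 fold change of 3.03 ± 0.54 (adjusted p = 7.71e-06), at a level of at most 0.286 TPM.

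The 14 members that rose in X2-PDPN spanned integrin chains, laminins, linkers and other receptors. Among laminin receptors Itga6 rose from 142, 138, 139.7 and 138 TPM in X2 to 209.7, 189, 203 and 205 TPM in X2-PDPN (log2 fold change 0.53 ± 0.03, adjusted p = 1.42e-20), and Itga3 by 0.17 ± 0.03. The fibronectin receptor chain Itga5 rose from 143, 146, 147 and 139 TPM to 199, 194, 206 and 201 TPM (0.47 ± 0.03, adjusted p = 5.19e-19). Of the beta chains, Itgb4 rose by 0.93 ± 0.15, Itgb3 by 0.58 ± 0.07 and Itgb5 by 0.31 ± 0.03 on the log2 scale. X2 and X2-PDPN did not overlap for Itga5, Itga6, Itgb3, Itgb4 or Itgb5. They did not overlap for Itga3 either, or for Ddr2 at -0.17. The share of all genes without overlap was not computed. A lack of overlap, here or in the other comparisons, therefore does not single out a gene.

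The matrix genes rose alongside. Lamc1 was at 266, 263, 277 and 249 TPM in X2 and 381, 339, 366 and 372 TPM in X2-PDPN (0.46 ± 0.03, adjusted p = 5.26e-11). The other abundant laminin chains and perlecan were also higher, by 0.52 ± 0.05 for Lama5, 0.70 ± 0.04 for Lamb2 and 0.71 ± 0.08 for Hspg2. Nid1 differed least, at 173, 178, 173 and 168 TPM against 189, 170.0, 191 and 190.1 TPM, and its groups overlapped (0.09 ± 0.03, adjusted p = 0.00891). The 5 members that fell were Itgb1, Itgb7, Itga7, Ddr2 and Lamb3. Itgb1 went from 1036, 998, 1041 and 1019 TPM to 825, 773, 802 and 809 TPM (-0.36 ± 0.02, adjusted p = 2.16e-16), so the most abundant beta chain fell while Itgb3, Itgb4 and Itgb5 rose.

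Itga7 (chromosome 10, 128933818 to 128958282), a laminin receptor chain best known from muscle, was at 18.0, 18.2, 17.6 and 16.6 TPM in X2 and at 10.2, 9.99, 11.0 and 9.65 TPM in X2-PDPN (-0.79 ± 0.05, adjusted p = 9.87e-19). Itgb7 fell from 43.2, 48.5, 44.0 and 49.5 TPM to 23.9, 23.4, 25.5 and 23.4 TPM (-0.95 ± 0.06, adjusted p = 5.99e-19). Neither pair of groups overlapped. Lamb3, the beta3 chain of the epithelial laminin-332 (chromosome 1, 193207699 to 193343878), was at 31, 21, 21 and 16 reads in X2 and 8, 13, 10 and 8 reads in X2-PDPN (-1.27 ± 0.31, adjusted p = 0.000435).

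The corresponding comparison with Ccr7 present was CCR7-PDPN against CCR7. In CCR7-PDPN against CCR7 (batch 1), Lamb3 was the member past both thresholds, giving 0 higher and 1 lower of 22 tested (0.664% and 2.60% of 13261 genes), with 21, 14, 14 and 7 reads in CCR7 and 3, 9, 3 and 3 reads in CCR7-PDPN (-1.66 ± 0.39, adjusted p = 0.0016). By the adjusted p alone 5 members were higher and 7 lower (20.9% and 20.7% of all genes), and the 7 became 11 when replicate 1 of CCR7 was left out. The 4 added were Itgb1 (-0.07, adjusted p = 0.014), Itga6 (-0.08, adjusted p = 0.0251), Itgav (-0.17, adjusted p = 0.00113) and Nid1 (-0.12, adjusted p = 0.00163), whose adjusted p lay between 0.18 and 0.588 with all libraries, and Itga10 was then higher (0.44, adjusted p = 0.00952, against 0.133 with all libraries). Itgb7 fell from 13.4, 15.9, 18.7 and 18.4 TPM to 9.75, 7.57, 9.44 and 8.64 TPM (-0.87 ± 0.10, adjusted p = 2.74e-06). Itga7 fell from 10.9, 9.91, 12.0 and 11.3 TPM to 6.95, 6.76, 7.99 and 6.41 TPM (-0.63 ± 0.06, adjusted p = 1.14e-07), and Itga1 by 0.54 ± 0.07 to 3.78, 3.35, 3.51 and 3.38 TPM (adjusted p = 6.01e-06). These 3 genes and Lamb3 were lower in CCR7-PDPN than in CCR7, while Itgb3 (-0.06 ± 0.10, adjusted p = 0.664), Itgb4 (-0.27 ± 0.24, adjusted p = 0.392) and, with all libraries, Itgb1 (-0.05 ± 0.03, adjusted p = 0.18) did not pass the test.

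Whether the PDPN difference depended on Ccr7 was tested as the difference in batch 1 (CCR7-PDPN minus CCR7) less the difference in batch 2 (X2-PDPN minus X2) over all 24 libraries. The baselines are unlike, since CCR7 is named PDPN-negative and X2 only the control, and the libraries of a derivative are technical replicates. A dependence on Ccr7 thus cannot be told apart from a difference between these baselines or sorted populations. Itgb4 was the member past both thresholds, with a difference of -1.20 ± 0.29 (adjusted p = 0.000867), so 0 of 22 were higher and 1 lower (0.964% and 4.48% of 13690 genes). By the adjusted p alone 1 member was higher and 13 lower, beside 20.3% and 20.5% of all genes. The 13 included the laminin-521 genes Lamb2 (-0.69 ± 0.05), Lamc1 (-0.69 ± 0.09) and Lama5 (-0.68 ± 0.08), Itga6 (-0.58 ± 0.04) and Itga1 (-0.77 ± 0.08), while Itgb1 was the 1 in the other direction (0.31 ± 0.04, adjusted p = 9.34e-09). Hspg2 differed by -0.93 ± 0.19 (adjusted p = 0.000621), and by -1.06 (adjusted p = 2.29e-05) without replicate 1 of CCR7, the library with the lowest Hspg2 of its group at 116 TPM against 154 to 220.0 TPM. Nid1 differed by -0.14 (adjusted p = 0.174) with all libraries and by -0.22 (adjusted p = 0.0002) without it. For Itgb7 (0.08 ± 0.12, adjusted p = 0.633), Itga7 (0.16 ± 0.08, adjusted p = 0.0941) and Lamb3 (-0.38 ± 0.50, adjusted p = 0.58) a dependence on Ccr7 was not detected. The arms lie in different batches, and CCR7 and X2-PDPN were each sequenced in 1 batch only. A batch shift particular to either therefore cannot be told apart from this difference. A fit with a batch term took that term from X2 and CCR7-PDPN, which were sequenced in both batches. Its counts past both thresholds were again 0 and 1, and by the adjusted p alone 2 members in place of 1 were higher.

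**Figure D3:**
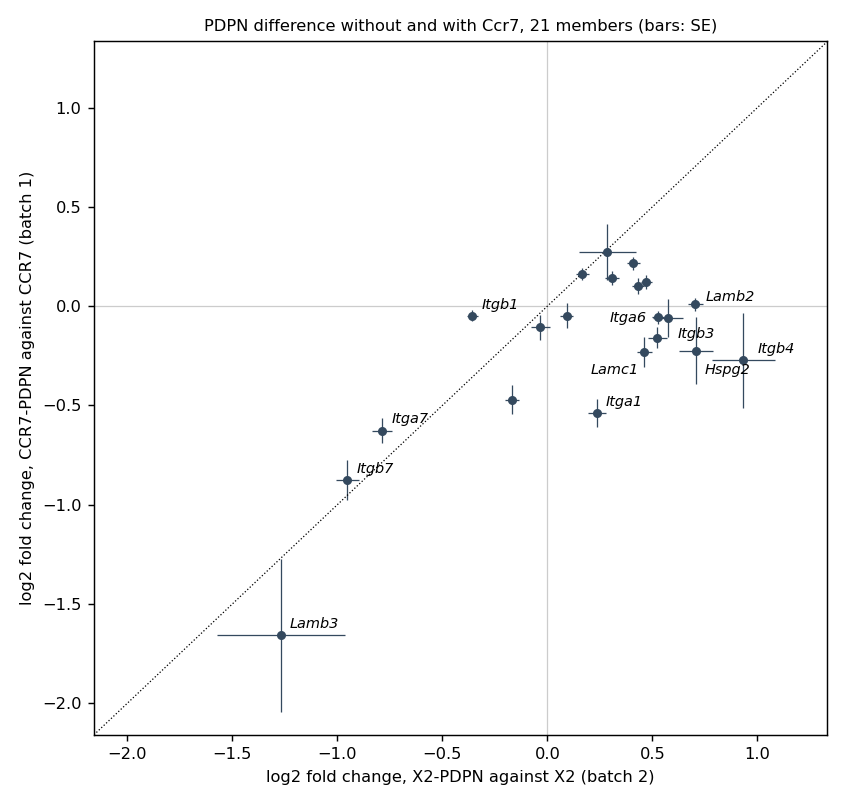
Log2 fold change of X2-PDPN against X2 (horizontal axis, without Ccr7) and of CCR7-PDPN against CCR7 (vertical axis, with Ccr7) for the 21 members tested in both batches. Bars are SE and the dotted line marks equal values. Itgb7, Itga7 and Lamb3 lie near the line, and Itgb4, Hspg2, Lamb2, Itgb3, Itga6 and Lamc1 lie to its right.

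CCR7-PDPN and X2 were sequenced in both batches, in separate libraries, so this comparison was made in each. In each batch the same 6 members, Itga1, Itga7, Itgb3, Itgb4, Itgb7 and Lamb3, were lower in CCR7-PDPN past both thresholds and 0 were higher, where 5.36% (lower) and 4.09% (higher) of all genes were called in batch 1 and 5.67% and 3.96% in batch 2. By the adjusted p alone 7 were higher and 9 lower in batch 1 (30.3% and 30.6% of all genes), and 8 were higher and 10 lower in batch 2 (32.0% and 32.8%). Itgb7 showed the largest fold of the well-read members, at -2.34 ± 0.09 in batch 1 (adjusted p = 1.87e-13) and -2.35 ± 0.07 in batch 2 (adjusted p = 7.88e-31), which took it from 45.6 ± 2.76 TPM (SD, n = 4) to 8.85 ± 0.974 TPM in batch 1. The values for batch 1 and batch 2 were -1.22 and -1.24 for Itga1, -1.26 and -1.17 for Itga7, -1.10 and -1.19 for Itgb3, -1.49 and -1.20 for Itgb4 and -2.43 and -2.02 for Lamb3. The most abundant members changed by less. Itgb1 fell by 0.39 and 0.38 and Itga6 by 0.23 and 0.22 on the log2 scale, Itga5 was higher by 0.35 and 0.36 (144, 140.1, 142 and 142 TPM in X2 and 180.0, 188, 178 and 166 TPM in CCR7-PDPN in batch 1), and Itga3 did not pass the test in either batch (0.02 and 0.06, adjusted p = 0.523 and 0.118).

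**Figure D4:**
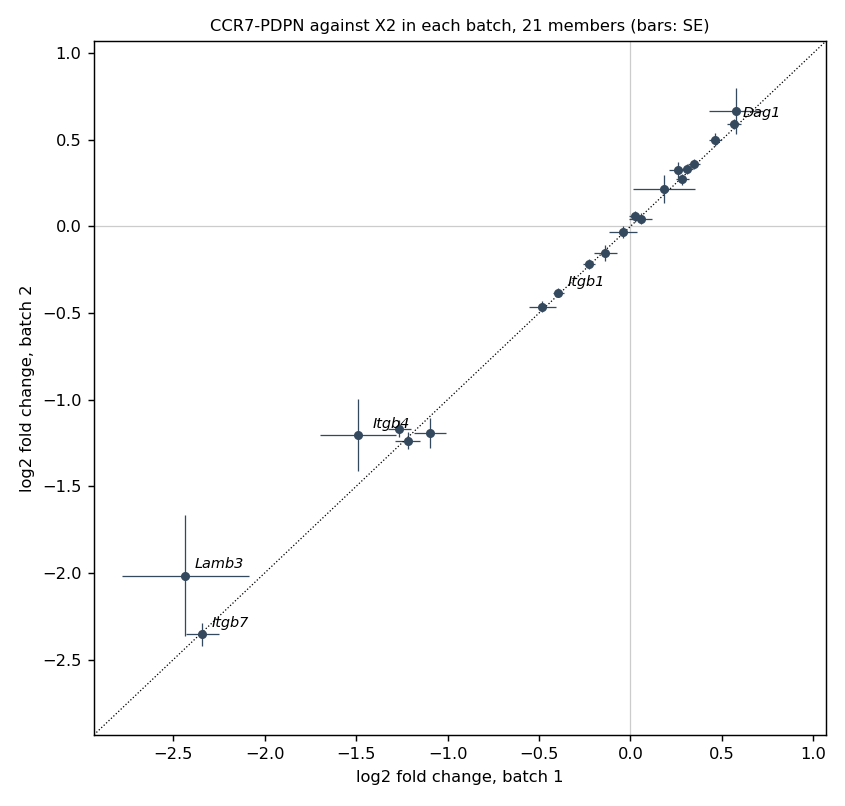
Log2 fold change of CCR7-PDPN against X2 in batch 1 (horizontal axis) and batch 2 (vertical axis) for the 21 members tested in both; bars are SE and the dotted line marks equal values. The 6 members past both thresholds lie at or below -1.10 in each batch, and Lamb3 and Itgb4, the least read of them, have the widest bars.

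Dag1, Ddr1, Lama5 and Lamb2 were higher in CCR7 than in X2 by the adjusted p, each under the fold threshold. Dag1 (dystroglycan, a laminin receptor outside the integrin family; chromosome 9, 108204634 to 108263958) was at 97.9, 94.4, 93.8 and 89.0 TPM in X2 and 138, 133, 122 and 126 TPM in CCR7 (0.46 ± 0.04, adjusted p = 2.1e-09), and at 129, 121, 127 and 129.8 TPM in X2-PDPN. Lamb2, on the same chromosome at 108479736 to 108490530, was higher in CCR7 by 0.45 ± 0.03 (adjusted p = 2.76e-10). Genes within 5 Mb of either had a median log2 fold change of 0.38 in CCR7 against X2, 0.44 in CCR7-PDPN against X2 in batch 2 and 0.14 in X2-PDPN against X2, and the part of this neighbourhood in the differences was not tested. Among the discoidin receptors, which bind collagen, Ddr1 was higher in CCR7-PDPN than in X2 by 0.31 ± 0.03 in batch 1 and Ddr2 lower by 0.48 ± 0.07 (adjusted p = 6.32e-08 and 0.000106). For Itgb1 the neighbourhood median in X2-PDPN against X2 was -0.25 beside its own -0.36, and for Itga5 it was 0.27 beside 0.47. For Itgb7, in contrast, it was 0.28 beside its own -0.95.

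Nid1 and Lamc1 in CCR7 rested on how replicate 1 was treated. Nid1 was at 153 TPM in that library and at 202, 183 and 193 TPM in the other 3, beside 167, 174, 169.9 and 166 TPM in X2, and Lamc1 was at 251 TPM beside 340.1, 295 and 314 TPM, with 265, 269, 269.9 and 243 TPM in X2. With all libraries the log2 fold changes of CCR7 against X2 were 0.10 (adjusted p = 0.187) for Nid1 and 0.19 (adjusted p = 0.0543) for Lamc1. Without replicate 1 they were 0.18 (adjusted p = 1.23e-05) and 0.27 (adjusted p = 0.000514), and Hspg2 went from 0.41 (adjusted p = 0.0747) to 0.54 (adjusted p = 0.0103). In CCR7-PDPN against X2 of batch 1, Itgav was at -0.14 in both fits, with an adjusted p of 0.0715 with all libraries and 0.0028 without replicate 1.

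**Figure D5:**
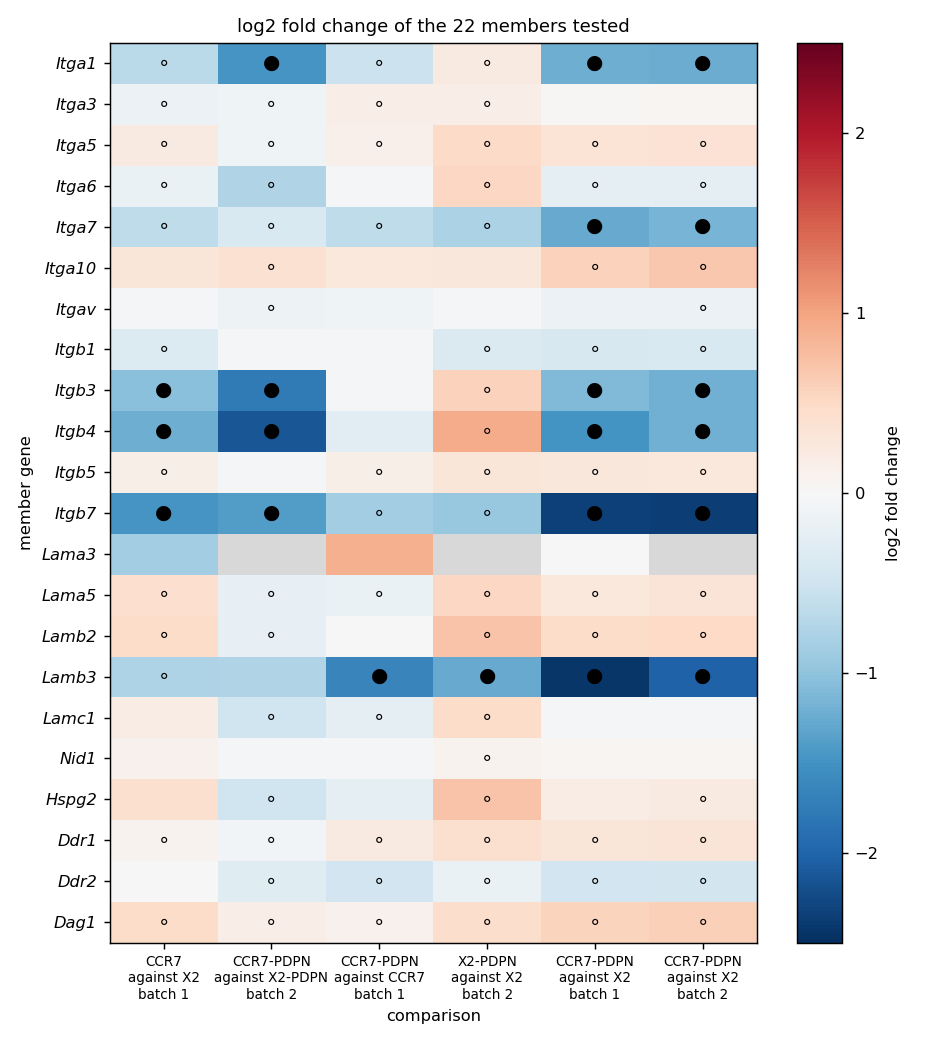
Log2 fold change (colour) of the 22 members tested, by gene and comparison; filled circles mark values past both thresholds, open circles an adjusted p under 0.05 alone, and grey cells were not tested. The filled circles are all on the lower side and fall on Itga1, Itga7, Itgb3, Itgb4, Itgb7 and Lamb3, and the column of X2-PDPN against X2 is mostly above 0.

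Inside the cell, integrins act through a plaque of adaptors and kinases, of which 33 genes were listed as focal adhesion partners. In CCR7 against X2, 0 of 31 tested were higher and 1 lower past both thresholds (3.30% and 3.18% of all genes), and by the adjusted p alone 8 were higher and 10 lower (24% and 25.2% of all genes). The 1 was Lims2 (PINCH-2, which binds integrin-linked kinase), at 35.4 to 40.6 TPM in X2 and 5.21 to 7.47 TPM in CCR7 (-2.52 ± 0.09, adjusted p = 9.33e-16). In CCR7-PDPN against X2 it was again the 1 partner past both thresholds, in batch 1 (-2.44 ± 0.09) and in batch 2 (-2.45 ± 0.07), where 5.36% and 5.67% of all genes were lower.

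In X2-PDPN against X2, 3 of 32 partners were higher and 0 lower (3.51% and 1.55% of all genes). Plec (plectin, which ties beta4 integrin to keratin filaments) rose from 71.3 to 85.5 TPM to 165 to 182 TPM (1.16 ± 0.07, adjusted p = 1.3e-07). Nedd9, a scaffold of the same family as p130Cas, was read 2 to 3 times per library in X2 and 131 to 162 times in X2-PDPN, and Tns4 (tensin-4) 6 to 10 and 27 to 36 times. In CCR7-PDPN against X2-PDPN 1 partner was higher and 4 lower (2.76% and 6.40% of all genes). The p130Cas gene Bcar1 was the 1 higher, at 77.2 to 79.7 TPM in X2-PDPN and 215 to 233 TPM in CCR7-PDPN (1.55 ± 0.03, adjusted p = 2.3e-37), beside a median of 1.39 over the genes within 5 Mb of it, and Nedd9, Lims2, Tns4 and Tgfb1i1 were lower. In CCR7-PDPN against CCR7 0 of 31 passed both thresholds in either direction, with 8 higher and 9 lower by the adjusted p alone (20.9% and 20.7% of all genes). By the test of the dependence on Ccr7, Nedd9, Dst, Tns4 and Plec were the 4 of 32 partners past both thresholds (4.48% of all genes), each with a lower PDPN difference in the Ccr7-transduced cells. Nedd9 was nearly unread outside X2-PDPN and passed the filter on low counts through that group alone. Its calls in batch 2 and in this test therefore show no more than its level in X2-PDPN.

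Of 31 other basement membrane and matrix ligands, 18 were tested in each batch. In CCR7 against X2, 0 were higher and 4 lower (3.30% and 3.18% of all genes). These were Spp1 (osteopontin, a ligand of alpha v beta3; 323 to 324 TPM in X2 and 121 to 137 TPM in CCR7, -1.32 ± 0.04, adjusted p = 1.78e-17), the laminin receptor Bcam (23 to 32 and 0 to 5 reads), Col15a1 (37 to 67 and 5 to 11 reads) and Lamc3 (62 to 66 and 24 to 39 reads). In CCR7-PDPN against X2-PDPN the 4 lower were Spp1 (-1.36 ± 0.03), Ecm1 (-1.49 ± 0.04), Bcam and Col15a1, and 0 were higher (6.40% and 2.76% of all genes). In X2-PDPN against X2 Lamc3 was the 1 lower (1.55% of all genes), and in CCR7-PDPN against CCR7 Col15a1 was (2.60% of all genes), with 0 higher in either. In CCR7-PDPN against X2, Bcam, Col15a1 and Lamc3 were lower in each batch (5.36% and 5.67% of all genes) and 0 ligands higher.

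Leukocyte and platelet integrin chains were scarce. Their 7 genes summed to 4.95 to 7.36 TPM per library in batch 1, where Itgb2 was at 1.51 to 3.72 TPM and Itgam had at most 1 read. Of these chains 3 were tested in batch 1 and 4 in batch 2. Itgal was the 1 higher past both thresholds in CCR7-PDPN against X2, by 1.16 ± 0.17 in batch 1 and 1.29 ± 0.15 in batch 2 (4.09% and 3.96% of all genes). It was also the 1 higher in X2-PDPN against X2, by 1.58 ± 0.14 (3.51% of all genes). In batch 2 Itgax was the 1 lower in CCR7-PDPN, against X2 and against X2-PDPN (5.67% and 6.40% of all genes). It was sparse, with 1 to 9 reads per library there, 10 to 22 in X2 and 8 to 20 in X2-PDPN.

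Because Itgb7 is known from lymphocytes, leukocyte markers were set beside it. The 8 markers summed to 150.2 to 177 TPM in X2, 46.2 to 63.5 TPM in CCR7 and 26.5 to 33.8 TPM in CCR7-PDPN in batch 1, and in batch 2 to 154 to 166 TPM in X2, 75.3 to 88.3 TPM in X2-PDPN and 23.6 to 31.9 TPM in CCR7-PDPN, so that they fell in the order that Itgb7 did. Nearly all of this came from Cd68 and Lyz2, whose products are lysosomal and which were 2 of the 8. The remaining 6 had fewer than 10 reads in every library of batch 1, and the defining markers Ptprc, Cd3e and Itgam had at most 4, 0 and 1 reads. Fibroblast markers summed to 94.7 to 124 TPM and endothelial markers to 0.676 to 1.41 TPM across all libraries. In each group of batch 1, 4 of the 7 fibroblast markers had fewer than 10 reads in every library, with Lum and Thy1 at 0. Nearly all of their sum thus came from the 3 that were tested. In X2-PDPN against X2, 1 of these 3, Col1a1, was higher past both thresholds (1.37 on the log2 scale) and 0 were lower (3.51% and 1.55% of all genes). The part of these markers in the results was not tested.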

How the data were processed

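Per the labels and the study's methods, RNA of 4 technical replicates per derivative and batch was made into stranded mRNA libraries and sequenced as single-end reads against GRCm38/mm10. The deposited values were whole-number counts per Ensembl gene, made by the authors and not normalized, with a gene length column. The aligner and the version of the read counter are not given in the sources used here. The batch 2 table held fewer genes than the batch 1 table, by a rule that is not given in the sources used here, and 12 members were not analysed here in batch 2.

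TPM were computed from the counts and the lengths of the batch 1 table. Each batch was fitted as 3 groups with edgeR 4.0.16 in R 4.3.3 (TMM factors, filterByExpr, robust quasi-likelihood test), with p-values adjusted by the Benjamini-Hochberg method over all genes tested, and the dependence of the PDPN difference on Ccr7 was fitted over 24 libraries. What edgeR names the biological coefficient of variation was 0.0471, 0.0322 and 0.0404 in the 3 fits, and here it measures the spread between technical replicates. DESeq2 1.42.0 served as an alternative, and other normalizations, filters, library subsets, a replicate block and a correction for the 5 Mb on either side were also tried. On simulated counts, genes were changed by 2 or by 1.5 on the log2 scale. For CCR7-PDPN against CCR7 (13106 genes), 100 of 100 were called at each size, as was 1 unchanged gene. For X2-PDPN against X2 (13135 genes), 100 of 100 were called at each size, with 0 unchanged genes. For the dependence on Ccr7 (13430 genes), 100 of 100 and 99 of 100 were called, with 2 unchanged genes. These shares were not split by expression level, so recovery of sparsely read members such as Lamb3 and Itgb4 was not tested.

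Per-library values were given for members past both thresholds in at least 1 comparison and for the most abundant gene of each role, and from other lists up to 4 genes with the largest folds. Other members named with values were chosen after their values were seen. The members and lists were chosen with earlier results of these data known. The floor of 3 reads covers counting error only. Each ± is an SE of the fit or, where marked, an SD, and covers the spread between technical replicates but not between independent sorts. Python 3.11.15, pandas 2.3.3 and Matplotlib 3.10.9 were used for summaries and plots.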

Additional observations from a re-analysis of the deposited data

Results flagged for a closer look

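Within groups of 4 libraries, 129 were checked for a library far from the other 3, of which chance alone would pick about 1 in 20, and 4 were found. In CCR7-PDPN of batch 2, replicate 4 had 231 CPM (counts scaled to library size) of Itga5, against 247 to 250.02 CPM in the other 3. In CCR7-PDPN of batch 1, replicate 2 had 118 CPM of Itgb5, against 110.3 to 111 CPM, and 0.288 CPM of Lamb3, against 0.0946 to 0.106 CPM, which is 9 reads against 3. In X2 of batch 1, replicate 4 had 538 CPM of Lamc1, against 589 to 597 CPM.

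The PDPN difference of Itgb4 differed between cells with and without Ccr7 by -1.20 on the log2 scale, by the test of the difference itself (edgeR, adjusted p = 0.000867).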

How the results depend on the processing

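Over 22 pairs of a member and a comparison past both thresholds, the 468 values obtained under alternatives kept their direction. Of these, 1 missed the fold threshold, Itgb3 in CCR7 against X2 at -0.98 without replicate 4 of CCR7. Lamb3 was too sparse to be tested with CPM above 1 in at least 4 libraries, so its calls were lost there and are not among these values. The same held in CCR7-PDPN against CCR7 with only the 2 groups compared. Of 234 counts of members with all libraries kept, 8 moved by over 1.5 times. In CCR7-PDPN against CCR7 the members lower past both thresholds were 2 without the filter on low counts, 0 with CPM above 1 in at least 4 libraries and 0 with only the 2 groups compared, in place of 1. In X2-PDPN against X2 the members higher past both thresholds were 1 without the filter and 1 by DESeq2, in place of 0, since Lamb1 then entered the test, and those lower were 0 with CPM above 1 and 2 after subtracting the neighbourhood median, in place of 1. With an additive batch term, 2 members in place of 1 had a higher PDPN difference with Ccr7 by the adjusted p alone. The same difference changed sign for Itga10 (0.034 with the batch term, from -0.01) and Itga3 (0.0001 without the filter and 0.0149 with the batch term, from -0.0017), neither past the test in the reported fit.

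Leaving out 1 library moved 19 of 384 counts by over 1.5 times. Counts past both thresholds ranged from 0 to 1 for higher members in CCR7-PDPN against CCR7, in X2-PDPN against X2 and in the dependence on Ccr7, and from 1 to 2 for lower members in the dependence on Ccr7. The first of these was Lama3, at 1.05 without replicate 4 of CCR7 and 1.06 without replicate 3 of CCR7-PDPN. The second was Lamb1, which entered the test in 9 of the 12 left-out fits of batch 2, at 2.63 to 3.38. The last included Hspg2 at -1.06 without replicate 1 of CCR7. By the adjusted p alone they ranged from 5 to 11 (lower in CCR7-PDPN against CCR7, 11 without replicate 1 of CCR7), from 1 to 2 (higher in CCR7-PDPN against X2-PDPN) and from 1 to 2 (higher in the dependence on Ccr7). Log2 values that changed sign with a library left out ranged in CCR7-PDPN against CCR7 from -0.0054 to 0.0339 for Lamb2, -0.1173 to 0.0207 for Itgb3 and -0.1213 to 0.0031 for Nid1, in CCR7 against X2 from -0.0523 to 0.0653 for Ddr2 and -0.0921 to 0.035 for Itgav, in CCR7-PDPN against X2 (batch 1) from -0.1186 to 0.185 for Lama3, in X2-PDPN against X2 from -0.0634 to 0.006 for Itgav, and in the dependence on Ccr7 from -0.1261 to 0.1476 for Itga10, -0.0316 to 0.0133 for Itga3 and -0.0177 to 0.1503 for Itgb7. The causes were not tested.

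The replicate numbers did not pair the libraries, since the correlations of same-numbered deviations ran from -0.120 to 0.106 over 24 pairs and 6 of 24 libraries matched their own number best. With the replicate block, the members higher in CCR7-PDPN against X2 in batch 2 by the adjusted p alone were 7 in place of 8, and the other counts of members did not change. With the lengths of the reference annotation, the levels of all 23 members read in both batches moved by less than 1 SD. Depth limited Lamb1, Lama3, Lamb3 and Itgb4, which had under 120 reads in each library.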
